A study of Mus musculus with 12 samples.

Results

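The 9 genes described here encode the amyloid precursor family (App, Aplp1, Aplp2) and proteases that cut it: the beta-secretases Bace1 and Bace2, the gamma-secretase subunits Psen2 and Ncstn, and the alpha-secretases Adam10 and Adam17. They are 9 of the 24033 genes of the deposited count table and were picked by name for their enrichment on neuronal ribosomes and their change after nerve injury. Those same values therefore stand below as a description, with standard errors and no p-values. Where one of them is said to be called, this tells where it fell in the fit of the whole table and is no evidence about the 9 genes. The tissue was lumbar dorsal root ganglia (DRG), dissociated, of Adv-Cre//Ribotag mice. All groups carry both alleles: Cre under the Advillin promoter, active in sensory neurons, switches on an HA-tagged form of the ribosomal protein Rpl22. The 4 groups held 3 libraries each. They were RNA bound to HA-tagged ribosomes and immunoprecipitated (IP) from injured ganglia (IP injury) and from naive ganglia (IP naive, labelled Naïve), and RNA of the ganglia before the immunoprecipitation, injured (Input injury) and naive (Input naive). Injury was a crush of 1 sciatic nerve, with ganglia taken at day 3. Per the design text each animal gave both kinds of ganglia, so naive ganglia may be from the uncrushed side of crushed mice. That text speaks of 4 mice, whereas each group here has 3 replicates, and age, sex and strain are not given in these sources.

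App and its 2 relatives are membrane proteins with a large ectodomain and a short cytoplasmic tail. App is carried down axons by fast transport, and sensory neurons make it in quantity. An alpha-secretase cuts App within the amyloid-beta stretch and sheds a soluble ectodomain, whereas a cut by Bace1 at the start of that stretch opens the route to amyloid-beta. Gamma-secretase, a complex of a presenilin, nicastrin, an Aph1 subunit and Pen-2, then cuts the remaining stub inside the membrane and frees a tail fragment that binds adaptor proteins. The same proteases cut many other proteins, and in peripheral nerve Bace1 is known for cutting neuregulin-1, which controls myelination.

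The coding stretches that carry these functions are shown because they mark what each protein is cut by or cuts with. They were read from GENCODE vM21 transcripts on GRCm38, and each runs 5′ to 3′ in its reading frame. In the precursors, capitals mark the codons of the tail motif to which adaptors bind, in the last exon of each gene.
App: ggatatgagAATCCAACTTACaagttcttt
Aplp1: ggctatgagAACCCCACCTACcgcttcctg
Aplp2: ggttatgaaAACCCAACCTACaaatacctg
These lie on the minus strand at chr16:84955349-84955378 for App, chr7:30435308-30435337 for Aplp1 and chr9:31150889-31150918 for Aplp2. In the next stretch, from exon 16 of 18 of App at chr16:84965703-84965732 on the minus strand, capitals mark codons 671 to 674 of 770, between the first and second of which beta-secretase cuts.
App beta-secretase site: gaagtgaagATGGATGCAGAAttcggacat
The protein motif encoded by these capitals was searched for in the reading frames of both relatives. It occurred 0 times in the 654 codons of Aplp1 and 0 times in the 751 codons of Aplp2. Neither relative is known to give rise to amyloid-beta.

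In the proteases, capitals mark codons of the catalytic site: the first active-site motif of the aspartyl proteases Bace1 and Bace2, the active-site motif of the presenilin Psen2, and the zinc-binding motif of the metalloproteases Adam10 and Adam17.
Bace1: atcctggtgGACACGGGCAGTagtaacttt
Bace2: attcttgtgGACACTGGAAGCagtaacttc
Psen2: gtgaagCTCGGCCTGGGAGACTTCatcttc
Adam10: tttgctCATGAAGTTGGACATaacttt
Adam17: acaactCATGAATTGGGACATaatttt
Their positions are chr9:45852894-45852923 in exon 2 of 9 of Bace1 (plus strand) and chr16:97399640-97399669 in exon 2 of 9 of Bace2 (plus strand). They are chr1:180228927-180228956 in exon 10 of 11 of Psen2 (minus strand), chr9:70754290-70754316 in exon 9 of 16 of Adam10 (plus strand) and chr12:21336744-21336770 in exon 11 of 19 of Adam17 (minus strand). No stretch is shown for Ncstn, the subunit that holds substrates and does not cut.

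The genes lie on 5 chromosomes of GRCm38 per RefSeq. App spans chr16:84952666-85175255, Aplp1 chr7:30434980-30445582 and Aplp2 chr9:31149557-31211848, all on the minus strand. Bace1 spans chr9:45838545-45862484 and Bace2 chr16:97356728-97442936 on the plus strand. Psen2 spans chr1:180227004-180263467 and Ncstn chr1:172066013-172082789 on the minus strand, Adam10 chr9:70678944-70780229 on the plus strand and Adam17 chr12:21323509-21373632 on the minus strand. The counts are of whole genes, so the values below do not tell one splice form or exon from another.

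Libraries held 41076255 to 41990355 counts in IP injury, 33508842 to 36338423 in IP naive, 29477848 to 31417170 in Input injury and 29436945 to 33015740 in Input naive. A level is given in CPM: the count is divided by the library total, after that total was multiplied by edgeR's TMM composition factor. Atf3, a transcription factor switched on in injured sensory neurons, averaged 597 ± 16.6 CPM in IP injury and 19.2 ± 14.7 in IP naive, and 487 ± 19.7 in Input injury and 16.6 ± 10.8 in Input naive (SD, n = 3 each). Over 15 sensory neuron markers, summed CPM spanned 22591 to 23515 in IP injury and 23664 to 24476 in IP naive, against 17653 to 20484 in Input injury and 20461 to 21033 in Input naive. Of these markers, 2 passed the test as higher and 7 as lower after injury in IP, and 1 as higher and 9 as lower in input. Over 10 Schwann cell markers, the sum spanned 1395 to 1806 CPM in IP injury and 1372 to 1773 in IP naive, against 4867 to 6038 in Input injury and 5006 to 6230 in Input naive, and none of them was at 0 in IP. In RNA of bulk ganglia, fewer cells of a type and less RNA per cell cannot be told apart. A call below means an adjusted p under 0.05 in edgeR's quasi-likelihood test with Benjamini-Hochberg adjustment over 15748 genes, which took in all 9 genes described here.

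App, the precursor itself, stood furthest above input of the 9. Its 3 libraries in replicate order had 2029, 1557 and 1717 CPM in IP injury and 1774, 1468 and 1804 in IP naive, against 766, 739.7 and 855 in Input injury and 827, 827 and 867 in Input naive. Every IP library was above every input library, while the injured and naive ranges overlapped in both fractions. The log2 difference of IP minus input was 1.17 ± 0.10 (SE) in injured ganglia and 1.00 ± 0.10 in naive ganglia, or 2.25-fold and 2.00-fold. Counted from the highest difference of all 15748 genes, App ranked 31 in injured ganglia and 51 in naive ganglia. Injury minus naive was 0.072 ± 0.10 in IP and -0.094 ± 0.10 in input, each smaller than its SE. Library 2 was the lowest for App in each of the 4 groups, and the injury difference in IP turned to -0.040 without IP injury replicate 1 and was also below 0 without IP naive replicate 2.

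Aplp1, the relative made mostly by neurons, had 308, 303 and 317 CPM in IP injury and 344, 259 and 306 in IP naive, against 155, 172 and 208 in Input injury and 169, 173 and 186 in Input naive. IP again lay above input in every library, with no gap between injured and naive. IP minus input was 0.80 ± 0.11 in injured and 0.78 ± 0.11 in naive ganglia on the log2 scale. The injury difference was 0.030 ± 0.11 in IP and 0.017 ± 0.11 in input.

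Aplp2, the relative made in most tissues, behaved otherwise, with a lower level after injury and a smaller distance between the fractions. It had 698, 591 and 605 CPM in IP injury and 791, 726 and 775 in IP naive, against 491, 457 and 483 in Input injury and 616, 591 and 620.4 in Input naive. All injured libraries were below all naive libraries, within IP and within input. By injury, the difference was -0.27 ± 0.073 in IP and -0.35 ± 0.073 in input (log2), and IP minus input was 0.40 ± 0.073 in injured and 0.33 ± 0.073 in naive ganglia. The call in IP was lost without IP injury replicate 2 (-0.23) or 3 (-0.25), without IP naive replicate 1 (-0.25) or 3 (-0.27), and without both IP libraries numbered 2 (-0.26). In input it was lost without Input naive replicate 3 (-0.26) and without both input libraries numbered 3 (-0.25).

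**Figure D1:**
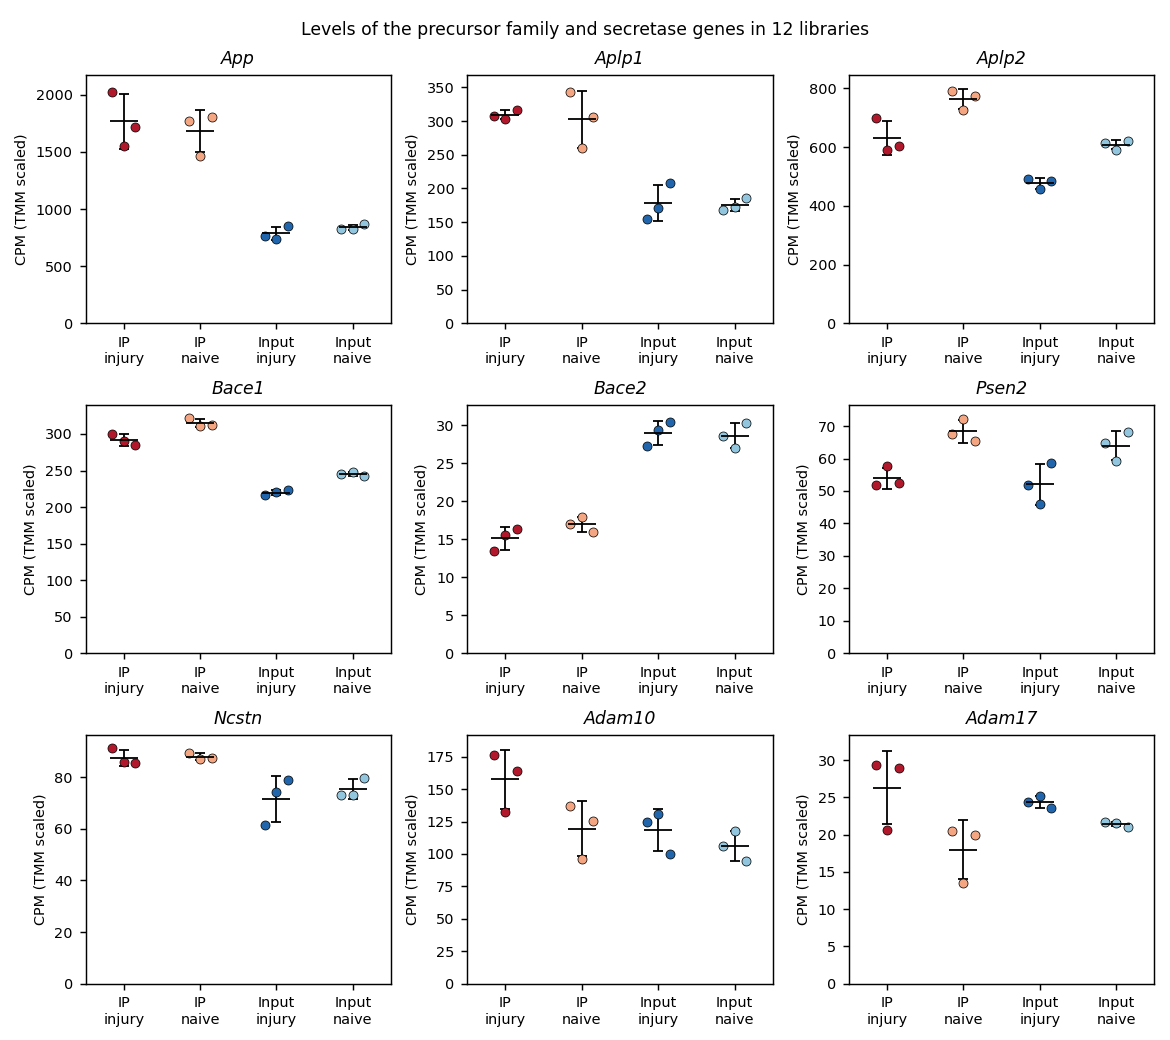
Level in CPM (TMM scaled, linear axes from 0) of each gene in the 12 libraries; points are libraries in replicate order, horizontal lines are group means and bars the SD (n = 3). App, Aplp1, Aplp2 and Bace1 lie higher in IP than in input, Bace2 lies lower, and Aplp2, Psen2 and Bace1 lie lower in injured than in naive ganglia within each fraction.

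The proportions of the precursors differed accordingly. Read counts of App over Aplp2, a ratio in which library size cancels, were 2.79 ± 0.142 in IP injury and 2.20 ± 0.158 in IP naive, against 1.65 ± 0.109 in Input injury and 1.38 ± 0.0309 in Input naive (SD, n = 3 each). The 4 groups did not overlap: the lowest IP injury library had 2.63 and the highest IP naive library 2.33, and the lowest Input injury library had 1.56 and the highest Input naive library 1.40. App over Aplp1 counts were 5.72 ± 0.765 in IP injury and 5.57 ± 0.376 in IP naive, against 4.46 ± 0.434 in Input injury and 4.78 ± 0.124 in Input naive. Those ranges overlapped between injured and naive and did not overlap between IP and input.

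**Figure D2:**
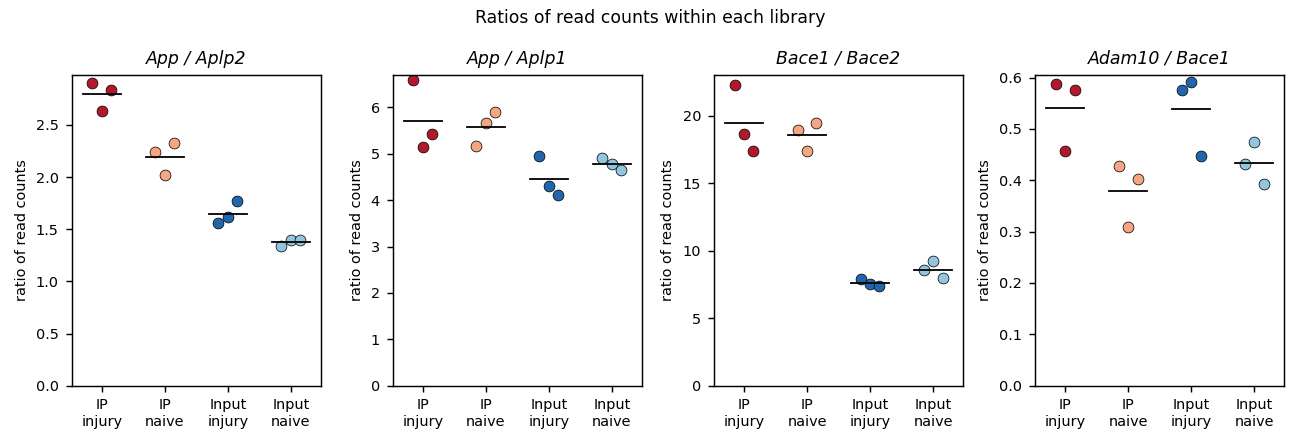
Ratio of read counts of 2 genes within each library (linear axes from 0; points are libraries in replicate order, lines are group means, n = 3). App over Aplp2 separates all 4 groups, and Bace1 over Bace2 lies between 17.4 and 22.3 in IP and between 7.35 and 9.20 in input.

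The 2 beta-secretases stood on opposite sides of input. Bace1, the main beta-secretase of neurons, had 299.9, 290.1 and 285 CPM in IP injury and 322, 311 and 312 in IP naive, against 216, 221 and 223 in Input injury and 245, 248 and 242 in Input naive. These were the tightest replicates of the 9 genes in input, and none of the 4 groups overlapped. IP minus input was 0.41 ± 0.055 in injured and 0.36 ± 0.055 in naive ganglia (log2). The difference of injury minus naive was -0.11 ± 0.055 in IP and -0.16 ± 0.055 in input, neither past the threshold, and both passed it (-0.11 and -0.16) in the fit with the replicate number as a block within each fraction. The IP difference also passed with DESeq2 and without both input libraries numbered 3. It passed in 3 of 22 alternatives, and the input difference in 1 of 22. Exons of Bace1 overlap those of Rnf214 on the other strand over 975 bases, and no source used here says how reads there were assigned.

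Bace2, a close relative of Bace1 that is found mainly outside neurons, had 13.5, 15.5 and 16.4 CPM in IP injury and 17.0, 17.9 and 16.0 in IP naive, against 27.2, 29.3 and 30.3 in Input injury and 28.5, 27.0 and 30.3 in Input naive. Each IP library was below each input library, and injured and naive libraries overlapped. IP minus input was -0.94 ± 0.094 in injured and -0.75 ± 0.094 in naive ganglia, and injury minus naive was -0.17 ± 0.094 in IP and 0.019 ± 0.092 in input (log2). The Schwann cell marker sum above was also lower in IP, and the part of such RNA in the Bace2 values was not tested. Bace1 over Bace2 read counts were 19.4 ± 2.55 in IP injury and 18.6 ± 1.10 in IP naive, against 7.60 ± 0.293 in Input injury and 8.60 ± 0.600 in Input naive (SD, n = 3 each).

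Of the gamma-secretase subunits, Psen2 was lower after injury in both fractions and Ncstn was not. Psen2, a catalytic presenilin, had 51.8, 57.5 and 52.4 CPM in IP injury and 67.6, 72.3 and 65.4 in IP naive, against 51.7, 45.9 and 58.6 in Input injury and 64.8, 59.1 and 68.1 in Input naive. The injured libraries lay below the naive ones without overlap in each fraction, by 0.548 CPM in input, while IP and input overlapped. Injury minus naive was -0.34 ± 0.094 in IP and -0.30 ± 0.094 in input, and IP minus input was 0.050 ± 0.094 in injured and 0.097 ± 0.094 in naive ganglia (log2). The input call was past the threshold in 6 of 22 alternative settings, reached -0.17 without Input naive replicate 3, and was also lost without any 1 of the IP libraries, which are in neither of its groups. The IP call was lost without IP injury replicate 1 (-0.32) or 3 (-0.32), without IP naive replicate 1 (-0.35) or 2 (-0.30), and without both libraries numbered 2 of the naive groups (-0.30) or of IP (-0.35).

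Ncstn, the subunit that receives substrates, had 91.2, 85.8 and 85.4 CPM in IP injury and 89.5, 87.2 and 87.2 in IP naive, against 61.6, 74.2 and 79.0 in Input injury and 73.3, 72.9 and 79.8 in Input naive. Its IP libraries were all above its input libraries, and injury moved it by less than 1 SE. Its injury difference was -0.0081 ± 0.086 in IP and -0.073 ± 0.087 in input, and IP minus input was 0.29 ± 0.087 in injured and 0.22 ± 0.087 in naive ganglia (log2). The difference in injured ganglia lost its call without IP injury replicate 1 (0.26) or Input injury replicate 1 (0.19), with scaling by library size alone (0.14) and in a fit of the compared groups alone (0.26). Its exons overlap those of Copa on the other strand over 195 bases.

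Of the alpha-secretases, Adam17 was called higher in injured IP in the fit over group means and Adam10 was not. Both were called higher in IP with the replicate block within each fraction. Adam10, the main alpha-secretase of neurons, had 176, 132 and 164 CPM in IP injury and 137, 95.9 and 125 in IP naive, against 124, 131 and 99.8 in Input injury and 106, 118 and 95.0 in Input naive. Within each replicate number the injured IP library was above the naive one, and both IP libraries numbered 2 were the lowest of their group. The IP groups overlapped because IP injury replicate 2 (132) lay below IP naive replicate 1 (137). Injury minus naive was 0.40 ± 0.15 in IP and 0.16 ± 0.15 in input, and IP minus input was 0.41 ± 0.15 in injured and 0.17 ± 0.15 in naive ganglia (log2). The first of these missed the threshold and passed it (0.40) with the replicate block within each fraction, as did the input difference (0.15). The IP minus input call in injured ganglia was past the threshold in 10 of 21 alternatives. It was lost without IP injury replicate 1 (0.33) or 3 (0.39), without Input injury replicate 1 (0.45) or 3 (0.30), and without IP naive replicate 3 or Input naive replicate 1 or 3, which are in neither of its groups.

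Adam17, the sheddase that releases tumour necrosis factor and also acts on App, had 29.4, 20.7 and 28.9 CPM in IP injury and 20.6, 13.5 and 20.0 in IP naive, against 24.4, 25.2 and 23.5 in Input injury and 21.6, 21.6 and 21.1 in Input naive. Injured libraries lay above naive ones without overlap, by 0.116 CPM between the closest IP libraries, and in naive ganglia each IP library was below each input library. Injury minus naive was 0.55 ± 0.16 in IP, the largest of the 9, and 0.19 ± 0.16 in input, and IP minus input was 0.11 ± 0.15 in injured and -0.25 ± 0.16 in naive ganglia (log2). The call in IP was lost without IP injury replicate 1 (0.46) or 3 (0.47) and without IP naive replicate 2 (0.38). It was also lost without both naive libraries numbered 2 (0.38), without both input libraries numbered 3 (0.52) and in a fit of the IP groups alone (0.54), and it was kept without both IP libraries numbered 2. With the replicate block within each fraction, the input difference of 0.19 passed the threshold as well. Exons of Adam17 overlap those of Iah1 on the other strand over 311 bases.

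Macrophage markers, 9 of 10 of them tested and none at 0, were also higher in injured ganglia, with 4 called in IP and 4 in input. Their summed level was 28.3 to 73.7 CPM in IP injury and 14.0 to 26.6 in IP naive, against 266 to 327 in Input injury and 119 to 143 in Input naive. Satellite glia markers summed to 774 to 1122 CPM in IP injury and 461 to 828 in IP naive, and fibroblast and perineurium markers to 218 to 350.0 CPM in IP injury and 146 to 248 in IP naive, each higher in the injured library of every replicate number. Single markers moved less: 1 of 7 satellite glia markers was called higher in injured IP and 0 lower, with a median log2 difference of 0.018. For fibroblast and perineurium markers it was 1 of 8 higher and 0 lower, with a median of 0.34. The part of such RNA in the Adam10 and Adam17 values was not tested. The ratio of Adam10 to Adam17 counts was 6.03 ± 0.370 in IP injury and 6.69 ± 0.415 in IP naive, against 4.84 ± 0.521 in Input injury and 4.95 ± 0.480 in Input naive (SD, n = 3 each). Adam10 over Bace1 counts, the alpha-secretase set against the beta-secretase, were 0.540 ± 0.0724 in IP injury and 0.379 ± 0.0625 in IP naive, against 0.539 ± 0.0793 in Input injury and 0.433 ± 0.0415 in Input naive. The IP injury and IP naive libraries did not overlap in this ratio, the lowest injured library having 0.457 and the highest naive library 0.427. The input libraries overlapped.

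**Figure D3:**
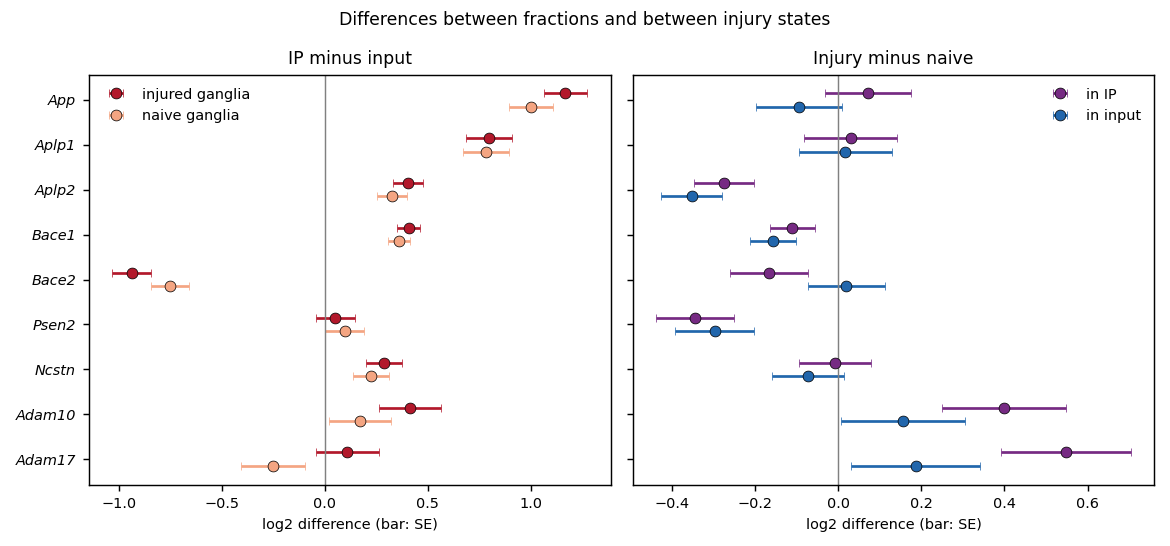
Log2 difference of each gene between IP and input (left panel: injured and naive ganglia) and between injured and naive ganglia (right panel: IP and input); bars are the SE from the edgeR fit over 12 libraries. App and Aplp1 lie furthest right and Bace2 furthest left in the fraction panel, and Adam10 and Adam17 lie on the right and Aplp2 and Psen2 on the left in the injury panel.

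Set against the whole table, these calls are a description of genes chosen for the same differences. In injured minus naive IP, 1 of the 9 was called higher (Adam17), where 11.5% of all genes were, and 2 were called lower (Aplp2 and Psen2), where 7.12% of all genes were. In input, 0 were called higher, where 7.79% of all genes were, and 2 were called lower (Aplp2 and Psen2), where 8.26% were. In input 0 members were also higher with DESeq2, with limma-voom and at an unadjusted p under 0.05. With the replicate block within each fraction, 2 were called higher and 3 lower in each fraction, and 6586 genes of the whole table in place of 2939 in IP and 6237 in place of 2526 in input. In IP minus input, 6 were called higher in injured ganglia (App, Aplp1, Aplp2, Bace1, Ncstn and Adam10), where 21.4% of all genes were, and 1 lower (Bace2), where 24.6% were. In naive ganglia 4 were called higher (App, Aplp1, Aplp2 and Bace1), where 15.1% were, and 1 lower (Bace2), where 26% were. These backgrounds move with the scaling: over all genes, 3363 were higher and 3867 lower in injured IP, and 2383 higher and 4091 lower in naive IP, against 1521 and 4845, and 1368 and 4760, with library size alone. The comparisons share libraries with one another, so their counts are not separate evidence.

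Median log2 differences over the 9 genes were -0.0081 for injury in IP, -0.073 for injury in input, 0.40 for IP minus input in injured and 0.22 in naive ganglia. Over all genes tested they were 0.021, -0.022, 0.043 and -0.014. Scaling by library size alone, without TMM factors, shifted the median of all genes by -0.15 in IP minus input of injured ganglia and by -0.093 in naive ganglia. Under that scaling App stood at 1.02 and 0.91, and Psen2 and Adam17 in injured ganglia changed sign to -0.096 and -0.039.

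The interaction, the injury difference in IP minus that in input, tests whether the 2 fractions moved differently. It was 0.36 ± 0.22 for Adam17, 0.24 ± 0.21 for Adam10, 0.17 ± 0.15 for App and -0.19 ± 0.13 for Bace2 on the log2 scale, and between -0.047 and 0.078 for the other members. Of the 9, 0 were called higher, where 0.0635% of all genes were, and 0 were called lower, where 0% were. DESeq2, limma-voom and an unadjusted p under 0.05 called 0 members as well, and over the whole table they gave 3, 0 and 106 genes as lower. With the replicate block within each fraction, 282 genes were called in place of 10, Adam10 (0.25) and Adam17 (0.37) among them. That the injury difference passed in IP and not in input for Adam17 therefore does not show in the fit over group means that the fractions differ.

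Between genes, levels are compared as CPM per kilobase of the longest coding transcript. In IP injury the order was App 216 ± 29.4, Aplp2 174 ± 16.1, Aplp1 132 ± 2.95, Bace1 48.1 ± 1.27, Adam10 34.3 ± 4.91, Ncstn 30.2 ± 1.10, Psen2 26.7 ± 1.56, Adam17 5.89 ± 1.10 and Bace2 1.98 ± 0.198 CPM per kilobase (SD, n = 3 each). App and Aplp2 overlapped, as did Adam10 and Ncstn, and the other neighbours in this order did not. In IP naive, Aplp2 stood at 210.3 ± 9.31 and App at 206 ± 22.7 CPM per kilobase. In input Aplp2 led, with 131 ± 5.0 for Aplp2 and 96.4 ± 7.41 for App in Input injury and 168 ± 4.30 for Aplp2 and 103 ± 2.82 for App in Input naive. This order depends on the length: the longest App transcript has 8167 bases with an extended end, and the median of its coding transcripts is 3220. With that median length, chosen after the data were seen, App led in all 4 groups with 549, 522, 244 and 261 CPM per kilobase in IP injury, IP naive, Input injury and Input naive.

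Patterns over the 12 libraries were compared with that of App as a description, since the libraries share 4 groups and the correlation follows the group means. Among 9730 genes with a mean of at least 10 CPM, the highest Pearson correlations of log2 CPM with App were those of Golga3 (0.991), Prpf6 (0.987), Txlna (0.987), Golga2 (0.986) and Syt11 (0.986). Golga3 and Golga2 encode golgins of the Golgi apparatus, and Syt11 a synaptotagmin. By Spearman correlation the first were Spryd3 and Chrnb2 (0.979 each). By Pearson correlation the nearest member was Aplp1 (0.969), then Bace1 (0.935), Ncstn (0.860) and Aplp2 (0.769). Adam10 had 0.579, Psen2 0.196, Adam17 -0.042 and Bace2 -0.974. By Spearman correlation the order at the top differed, with Ncstn at 0.923, Aplp1 at 0.902 and Bace1 at 0.839.

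Genes that work with the 9 were taken from 7 lists of 118 distinct genes. The lists were chosen with earlier results of these data known. Their shares and p-values, here and below, are therefore a description and no evidence about the lists. Of the 118 genes, 115 were tested. Of these, 27 rose after injury in IP (23.5%, against 11.5% of all genes) and 13 fell (11.3%, against 7.12%). In input 20 rose (17.4%, against 7.79% of all genes) and 15 fell (13.0%, against 8.26%). The median log2 difference in IP was 0.011, against 0.021 over all genes. In the interaction 0 rose and 0 fell, while an unadjusted p under 0.05 gave 7 and 1, DESeq2 0 and 1, and limma-voom 0 and 0. With the replicate block within each fraction, 6 substrates, 3 genes of regulation and trafficking and 1 ectodomain partner were higher and 1 clearance gene was lower in the interaction. All adjusted p-values below are from edgeR's quasi-likelihood test over the whole table, and means are given with their SD over 3 libraries.

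Among other ADAM proteases, 3 of 9 tested rose after injury in IP and 1 fell, with a median of -0.19. Adam8, a protease known from immune cells, rose to 76.5 ± 2.50 CPM in IP injury, against 8.62 ± 2.76 in IP naive (log2 difference 3.15 ± 0.20, adjusted p = 4.86e-07). Adam19, known for shedding neuregulin, rose to 269 ± 1.25 CPM in IP injury, against 164 ± 5.02 in IP naive (0.72 ± 0.077, adjusted p = 2.7e-05). Adam11, a neuronal family member without protease activity, fell to 209 ± 9.65 CPM in IP injury, against 286 ± 23.3 in IP naive (-0.46 ± 0.10, adjusted p = 0.00595). The macrophage sums given above rose beside Adam8, and their part in it was not tested. Adam8 in IP minus input of naive ganglia was -0.030 ± 0.20 (adjusted p = 0.922).

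**Figure D4:**
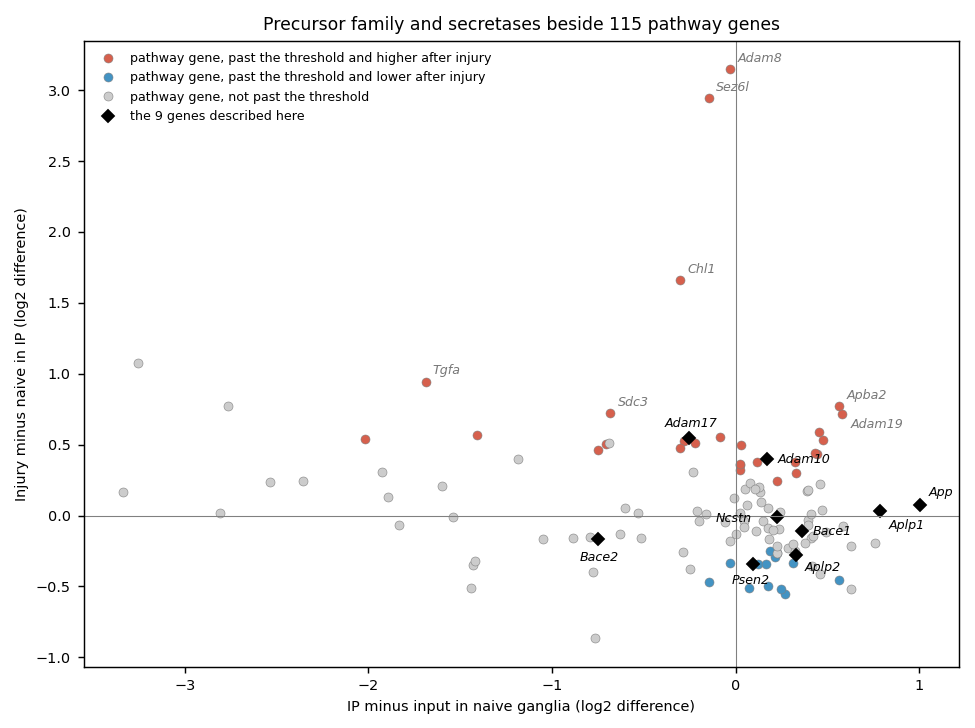
For each of 115 pathway genes and the 9 genes described here, the log2 difference of IP minus input in naive ganglia (x axis) and of injury minus naive in IP (y axis); red and blue points passed the injury test. Adam8 at 3.15, Sez6l at 2.94 and Chl1 at 1.66 lie furthest up, and the 9 genes lie between -0.34 and 0.55 on the y axis.

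Of 32 secretase substrates tested, 9 rose in injured IP and 4 fell, with a median of 0.10. Sez6l, a neuronal membrane protein shed by Bace1, rose to 175 ± 1.07 CPM in IP injury, against 22.8 ± 4.79 in IP naive (2.94 ± 0.15, adjusted p = 6.34e-08). Chl1, a cell adhesion molecule of growing axons that Bace1 also cuts, rose to 318 ± 11.6 CPM in IP injury, against 101 ± 2.41 in IP naive (1.66 ± 0.098, adjusted p = 1.85e-07). Tgfa, a growth factor shed by Adam17, rose to 13.7 ± 2.00 CPM in IP injury, against 7.10 ± 1.00 in IP naive (0.94 ± 0.13, adjusted p = 0.000237). Its level was higher in input, at 26.5 ± 1.64 CPM in Input injury and 22.9 ± 1.74 in Input naive (0.21 ± 0.12, adjusted p = 0.315). The satellite glia sums given above were also higher in injured IP, and their part in the Tgfa values was not tested. For injury in IP, Bace1 stood at -0.11 and Adam17 at 0.55.

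Of the 5 other gamma-secretase genes, 1 rose in injured IP and 0 fell. An unadjusted p under 0.05, DESeq2 and limma-voom also gave 0 lower, and the replicate block within each fraction gave 2 higher and 1 lower. The gene that rose was Psenen, which encodes the Pen-2 subunit, with 23.0 ± 0.958 CPM in IP injury and 16.1 ± 1.71 in IP naive (0.51 ± 0.12, adjusted p = 0.00744). Of 30 genes of secretase regulation and App trafficking, 6 rose and 3 fell. Rtn4, a reticulon that binds Bace1, rose to 2246 ± 103 CPM in IP injury, against 1493 ± 26.3 in IP naive (0.59 ± 0.090, adjusted p = 0.000465). Tspan17, a tetraspanin that accompanies Adam10, rose to 211 ± 11.1 CPM in IP injury, against 144 ± 2.96 in IP naive (0.55 ± 0.081, adjusted p = 0.000357).

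Of 19 genes listed as App cytoplasmic adaptors, 2 rose in injured IP and 3 fell. Apba2, an adaptor of the Mint family, rose to 247 ± 14.3 CPM in IP injury, against 145 ± 2.00 in IP naive (0.77 ± 0.066, adjusted p = 3.63e-06), and Grb2 rose by 0.44 ± 0.067 (adjusted p = 0.000521). Of 10 partners of the App ectodomain, 3 rose and 2 fell. The proteoglycan Sdc3 rose by 0.72 ± 0.091 (adjusted p = 9.93e-05) and the death receptor Tnfrsf21 by 0.38 ± 0.065 (adjusted p = 0.00106), while the contactin Cntn4 fell by 0.50 ± 0.087 on the log2 scale (adjusted p = 0.00139). Of 11 genes of amyloid-beta degradation and clearance, 3 rose and 0 fell. An unadjusted p under 0.05, DESeq2 and limma-voom also gave 0 lower, while the replicate block within each fraction gave 6 higher and 1 lower and leaving out both input libraries numbered 3 gave 1 lower. A further 9 named by the same rule, Shc3, Apbb3, Timp3, Sorcs1, Adam15, Ptprz1, Cntn1, Ctsd and Ctsb, passed with adjusted p-values of 0.0126 to 0.0455. Each of these 9 lost its call in 3 to 11 of 22 alternatives, in each case with at least 1 single IP library left out. With the replicate block within each fraction, the counts in IP were 5 higher and 8 lower for adaptors, 12 and 8 for regulation and trafficking, and 15 and 10 for substrates, while 4 ectodomain partners and 4 other ADAM genes were lower.

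Between the fractions, the adaptors were measured beside App. In naive ganglia 10 of 19 were higher in IP than in input and 1 was lower, with a median of 0.24, against 15.1% higher, 26% lower and a median of -0.014 over all genes. Apba1, a relative of Apba2, had 1068 ± 132 CPM in IP naive and 633 ± 40.7 in Input naive (0.76 ± 0.098, adjusted p = 5.26e-05), and Apba2 had a difference of 0.56 ± 0.066 (adjusted p = 2.24e-05). Apbb1ip, an adaptor of blood cells, was lower, with 0.163 ± 0.154 CPM in IP naive and 1.62 ± 0.403 in Input naive (-3.25 ± 0.46, adjusted p = 0.000107). In injured ganglia 12 adaptors were higher and 2 lower, and 6 were higher with scaling by library size alone.

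Of 9 other ADAM genes, 5 were higher in naive IP and 1 was lower. Adam22, Adam19 and Adam11 stood at 0.63 ± 0.10, 0.58 ± 0.077 and 0.56 ± 0.10 (adjusted p = 0.000319, 6.27e-05 and 0.000591), and Adam12 at -1.43 ± 0.24 (adjusted p = 0.000381). Of 30 regulators, 8 were higher and 10 lower. Lower were the iRhom genes Rhbdf1 (-1.93 ± 0.18, adjusted p = 3.43e-06) and Rhbdf2 (-1.54 ± 0.18, adjusted p = 2.04e-05), whose products carry Adam17 to the cell surface. The metalloprotease inhibitor Timp3 (-2.02 ± 0.17, adjusted p = 3.17e-06) and Itm2a (-2.81 ± 0.24, adjusted p = 3.28e-06) were lower too. Of 5 other gamma-secretase genes, 1 was lower, Aph1a (-0.53 ± 0.11, adjusted p = 0.0016), and 0 were higher, with 0 also by an unadjusted p under 0.05, DESeq2 and limma-voom.

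Of 32 substrates, 14 were lower in naive IP and 7 higher, with a median of -0.17, and the receptors Notch1 (-2.36 ± 0.13, adjusted p = 1.47e-07) and Notch2 (-2.54 ± 0.17, adjusted p = 7.58e-07) were among the lower ones. Of 11 clearance genes, 5 were lower and 2 higher, and 0 were higher with scaling by library size alone, without both naive libraries numbered 2 or without both IP libraries numbered 2. The 7 higher substrates became 3 with scaling by library size alone and 12 without both input libraries numbered 3. Apoe, the lipid carrier made by satellite glia and one of their markers here, had 255 ± 140 CPM in IP naive and 2573 ± 233 in Input naive (-3.33 ± 0.50, adjusted p = 0.000202), and the receptor Lrp1 differed by -1.18 ± 0.14 (adjusted p = 2.52e-05). Of 10 ectodomain partners, 3 were higher and 2 lower. Among them the receptor Gabbr1 stood at 0.49 ± 0.082 (adjusted p = 0.000406) and Sdc3 at -0.68 ± 0.091 (adjusted p = 6.2e-05). Markers of Schwann cells were lower in naive IP for 9 of 10 and of satellite glia for 6 of 7, and their part in these differences was not tested.

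A second deposited table gives counts of the same 12 libraries in short intervals of or beyond 3′ untranslated regions. It held 25 intervals for the 9 genes, none of them in a repeat, and no source used here says how they were selected. The sign of IP minus input was that of the gene counts for 6 of the 9 in injured and for 6 in naive ganglia, and the distance was widest for Aplp1. The single Aplp1 interval had 92 to 130 counts in IP injury and 66 to 99 in IP naive, against 97 to 130 in Input injury and 92 to 137 in Input naive. Scaled to the TMM-adjusted library size, its log2 ratio of IP to input means was -0.42 in injured and -0.51 in naive ganglia, where the whole gene stood at 0.80 and 0.78. The 4 App intervals gave 0.74 in injured and 0.26 in naive ganglia, where the gene stood at 1.17 and 1.00.

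The distance between interval and gene was placed among 7787 genes with at least 240 interval counts summed over the 12 libraries, a comparison chosen after the data were seen. Interval minus gene had a median of -0.039 in injured and -0.11 in naive ganglia. Aplp1 stood at -1.21 and -1.30, with 10 and 17 genes lower, and App at -0.43 and -0.74, with 458 and 218 genes lower. These intervals cover a small part of each transcript and share their libraries with the gene table, and no test was made on them. Bace2, with 28 to 82 counts per library in its 2 intervals, kept its side, at -0.63 in injured and -1.11 in naive ganglia.

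**Figure D5:**
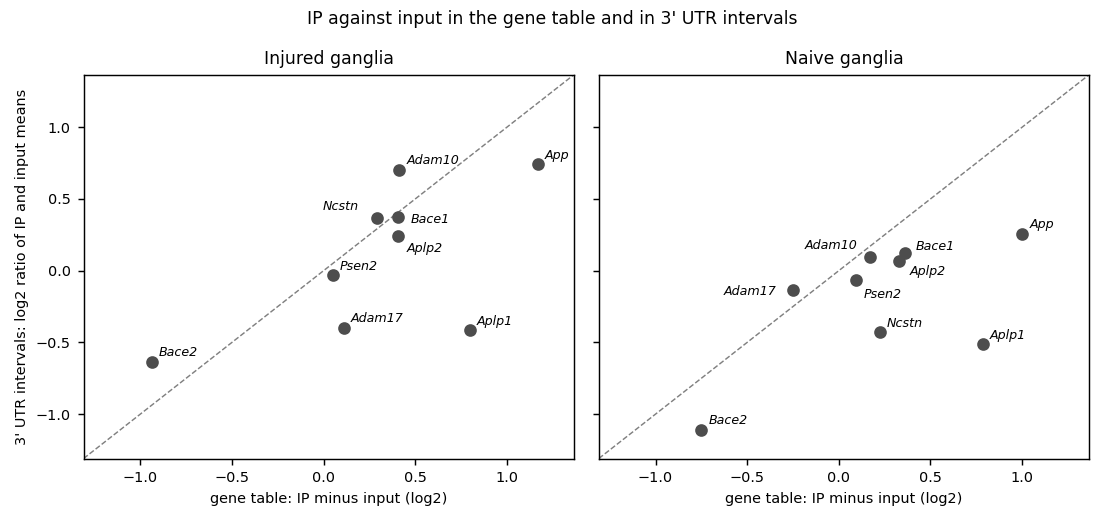
Log2 ratio of IP to input means in 3′ untranslated region intervals (y axis) against the log2 difference of IP minus input from the gene table (x axis) for the 9 genes, in injured and naive ganglia; the dashed line marks equal values. Aplp1 lies below 0 on the y axis (-0.42 and -0.51) and above 0 on the x axis (0.80 and 0.78) in both panels.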

How the data were processed

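For 12 libraries the authors deposited raw counts in 2 tables, one by gene symbol and one by short genomic interval. RNeasy columns and a stranded kit with ribosomal RNA depletion were used, per the labels' protocols. The submitters' processing notes name bcl2fastq 2.17, STAR and HTSeq with GRCm38 and mm10. Strand, overlap and multiple-match settings are not given in the sources used here. Of 24060 entries, 27 had names turned into dates (0.191% to 0.214% of counts) and were left out. Columns of no sample numbered 0.

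Groups and replicate numbers came from the titles. Replicates differed by 4.75 to 54.9 chi-square units per degree of freedom, so none were merged, and p-values measure the spread between these libraries. Counts were fitted in edgeR 4.0.16 (R 4.3.3, robust quasi-likelihood, TMM, filterByExpr) over all 12 libraries with 4 group means. Replicate numbers paired injured with naive libraries within a fraction (correlations of deviations from group means 0.489 to 0.646 in IP and 0.627 to 0.908 in input, all over 0.1) and not across fractions (lowest -0.076). The main fit left this pairing out, and the replicate block within each fraction took it in. Alternatives were a replicate block, library size scaling, no filter, DESeq2 1.42.0, limma-voom 3.58.1, fits of the compared groups only, and libraries left out. The code was tested on simulated data. Gene positions came from RefSeq and transcripts from GENCODE vM21, both on GRCm38.

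The members and lists were chosen with earlier results of these data known. Named from each list are at most 4 called genes with the largest log2 difference (for injury, in IP; for IP minus input, in naive ganglia). One gene that this rule names is not reported here.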

Additional observations from a re-analysis of the deposited data

How the results depend on the processing

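No called difference reversed in any alternative run. Genes called for injury in IP numbered 2939, against 6586 with the replicate block within each fraction, 4736 with only the 2 groups compared, 4943 without both input libraries numbered 3 and 1696 without both IP libraries numbered 2 (added after the data were seen). For injury in input they numbered 2526, against 6237 with that block, 1335 with only the 2 groups compared and 1669 without both naive libraries numbered 2, and leaving out single libraries gave 1524 to 2653. For the interaction they numbered 10, against 18 with the replicate block over all 12 libraries, 282 with the block within each fraction and 44 by DESeq2, and single libraries left out gave 0 to 15. Those of IP minus input, 7230 in injured and 6474 in naive ganglia, kept within 1.5 times in every alternative run as totals. The genes higher in IP did not: 3363 in injured ganglia became 1521 with library size scaling and 2185 with only the 2 groups compared, and 2383 in naive ganglia became 1368 with library size scaling and 4473 without both input libraries numbered 3. The block within each fraction was not run for IP minus input, because each of its blocks lies in 1 fraction. The log2 differences followed under alternatives were those of the 9 genes and of the called list genes. Of these, 5074 kept their direction and side of the threshold or, for the 9 genes, moved by less than the spread. Another 452, all of list genes, lost their call, and 48, all of the 9 genes, moved further. Calls that the 9 genes lost are not among the 452 and are given above by gene.

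With 3 libraries a group, SEs of the 9 genes on the log2 scale ran to 0.16 in the comparisons of 2 groups and to 0.22 in the interaction. A difference about as large as its own SE could not be resolved. Some larger ones also missed the threshold, such as the injury differences of Adam10 in IP (0.40 ± 0.15) and Bace1 in input (-0.16 ± 0.055). Total RNA of ganglia mixes cell types. Counts at overlapping exons of opposite strands are uncertain for Bace1, Ncstn, Adam17 and App. Protein levels and cleavage were not measured.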
